A study of Mus musculus with 18 samples.

Results

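The genes described here are the 47 that encode the DNA replication machinery, out of 32285 genes in the count table of mouse liver RNA. They were taken by name, from 11 sub-complexes that run from origin recognition to the joining of Okazaki fragments. Each of the 3 groups held 6 libraries, and all are labelled wild-type B6D2F1. The study's text gives fewer wild-type mice than there are BDF1 libraries, so whether each BDF1 library came from a separate animal is not settled, and n below counts libraries. Space pups were 10 weeks old and were offspring of GS cells, a culture of spermatogonial stem cells, that had spent 6 months frozen aboard the International Space Station. Ground pups were of the same age and came from GS cells kept frozen on Earth for those 6 months. The GS cells came from a DBA/2 background with an EGFP transgene, were thawed and transplanted into the testes of infertile W mice, and the recipients were mated with C57BL/6 females. In both groups, fewer recipients became fertile by the study's account than there are libraries, so some libraries of a group shared a father. BDF1 mice are labelled as the control, and their age is not stated. Age, parentage and rearing therefore cannot be told apart from group in any comparison with BDF1 mice, whereas Space and Ground pups differed by label in the place of storage alone.

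In a dividing cell the origin recognition complex marks the start points of replication, and Cdc6 and Cdt1 load the ring of Mcm2 to Mcm7 around the DNA. Cdc45 and the GINS complex then turn that ring into the active CMG helicase with the help of Mcm10. Polymerase alpha with its primase lays down the primers, the Rfc clamp loader sets the Pcna clamp, and polymerases delta and epsilon copy the strands. Most hepatocytes of an adult liver are not dividing. Many of the same proteins also serve DNA repair, so their transcripts are found in resting tissue as well. In bulk liver RNA, more transcript per cell and more cells with the transcript cannot be told apart.

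Total counts per library lay between 15407450 and 20562351. The replication genes together made up between 0.0263% and 0.0481% of them. Values are given as CPM, a gene's reads scaled to 10⁶ reads of library size after TMM adjustment, and a count of 0 still allows between 0.134 and 0.236 CPM in a library, because 3 counts is the upper limit. This limit covers counting error only. Sex is not among the labels, although by the study's account males and females were both taken. Replicates 1 to 3 of each group had little Xist RNA and replicates 4 to 6 had much, and the classes are called Xist-low and Xist-high below. The share of the hepatocyte gene Alb was 17.6% to 24.1% in the 6 Xist-high pups and 4.47% to 8.03% in the other 12 libraries. Serpina6 stood apart at 3.43% in Space replicate 4, 3.41% in Ground replicate 5 and 2.18% in Ground replicate 6, and reached 0.107% elsewhere. All 10 hepatocyte markers were detected in every library.

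The replication genes differed widely in level. Divided by exon length, the highest were Rnaseh2c at 15.1 CPM per kb, Pold4 at 12.9, Gins4 at 7.90, Pole4 at 7.83, Pole3 at 7.65 and Pcna at 7.15. Rnaseh2c is a subunit of RNase H2, which removes ribonucleotides from DNA, and Pold4 is the smallest subunit of polymerase delta. Pole3 and Pole4 are the histone-fold subunits of polymerase epsilon. The catalytic subunits lay lower, with Pold1 at 0.653 and Pole at 0.142 CPM per kb. At the low end stood Orc1 at 0.0145 and Cdc6 at 0.0179 CPM per kb, and 19 of the 47 genes were under 1 CPM per kb.

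The subunits of a complex were not at a common level. Within the origin recognition complex, the range ran from 0.0145 CPM per kb for Orc1 to 2.83 for Orc3, with a median of 1.62 over the 6 genes. Within the MCM helicase, Mcm7 stood at 2.77 CPM per kb against a median of 0.618 over Mcm2 to Mcm7. Mcm10, which binds the CMG helicase and has no part in the ring, was at 7.03 CPM per kb. That is 11.4 times the median of Mcm2 to Mcm7 and 2.54 times Mcm7, and it put Mcm10 at rank 7 of the 47. These are means over all libraries, and in single libraries Mcm10 ran from 3.23 to 14.3 CPM per kb, from 0.973 to 6.36 times Mcm7 and from rank 2 to rank 10. No annotated gene overlaps Mcm10 in GENCODE M21. Mcm7 shares 321 bases of exon with Ap4m1 and 64 with Cops6, both on the opposite strand, and the strand setting of the counting is not stated.

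**Figure D1:**
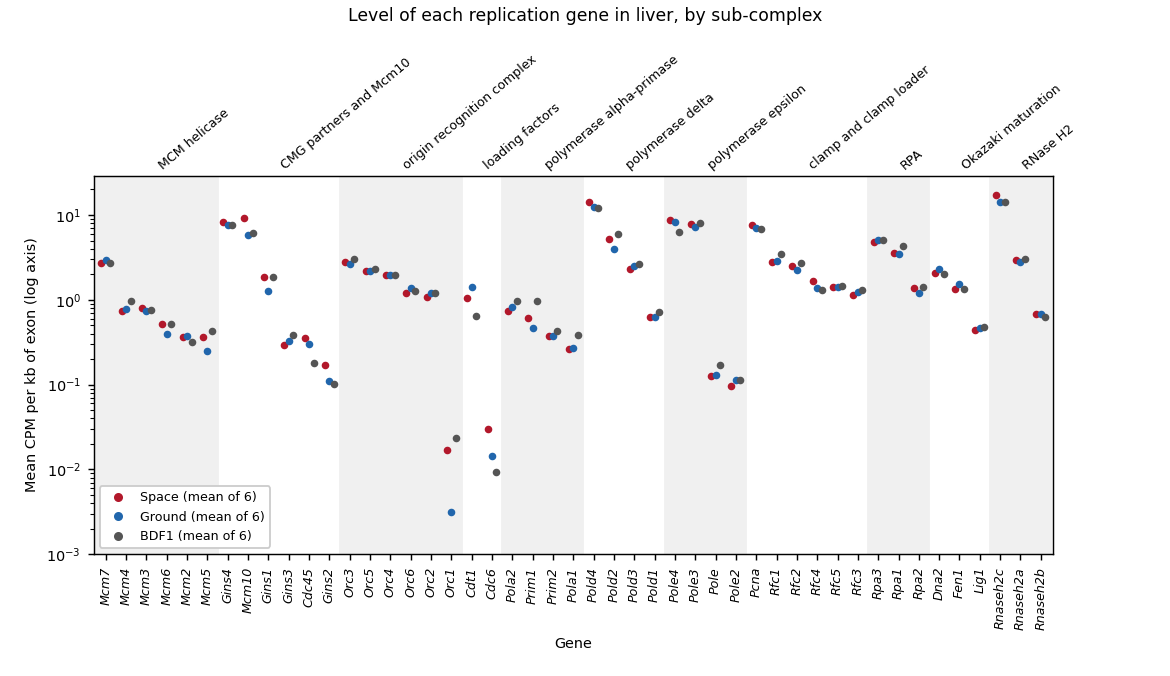
Mean CPM per kb of exon on a log axis for each of the 47 genes, ordered by level within the 11 sub-complexes, with 1 point per group (mean of 6 libraries). Rnaseh2c at 15.1 and Pold4 at 12.9 are the highest over all groups and Orc1 at 0.0145 is the lowest.

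Of the 47 genes, 44 passed the filter on low counts and were tested. Orc1, the largest subunit of the origin recognition complex, was at or below 0.236 CPM in every library and had no count in 11 of the 18. Cdc6 did not exceed 0.314 CPM and Pole2, the second subunit of polymerase epsilon, did not exceed 0.552 CPM. No difference between groups was readable for these 3 genes at this depth.

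Letters of E2F sites, which were not used to choose the genes, were present in the promoter windows of 19 of them. E2F transcription factors control genes of the G1 to S transition, and their sites were searched as the letters TTTGGCGC, TTTCCCGC, TTTGGCGG and TTTCGCGC on both strands, in the 250 bases before and 50 bases after each start site in RefSeq (GRCm38.p6). A window was present for 39 of the 47 genes, and 19 of the 39 (48.72%) held such letters. The share was 2.701% over 27025 genes with a window and 4.796% over 10070 genes that were also tested here. TTTGGCGC and TTTCGCGC can overlap on opposite strands, so a single site may give a match to both. CCAAT was in 58.97% of the 39 windows against 41.06% of all and 42.83% of tested genes, the SP1 letters GGGCGG in 71.79% against 38.2% of all and 66.6% of tested genes, and the CHR letters TTTGAA in 15.38% against 20.23% of all and 14.55% of tested genes. A match describes letters and is not evidence of binding.

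The sequences show 3 arrangements among genes to which the results below refer, read 5′ to 3′ on the strand of the gene, with E2F and CCAAT letters in capitals. Mcm5, a helicase subunit that was not called in any comparison of groups over all libraries, has overlapping E2F letters 153 bases before its start (chr8:75109259-75109508, plus strand). Mcm10 has none and has CCAAT at 98 and 23 bases before its start (chr2:5012792-5013041, minus strand). Pole4 has E2F letters on the opposite strand, 34 bases before the more upstream RefSeq start (chr6:82652875-82653124, minus strand). In Cdt1 the E2F letters begin at base 33 after the start, next to the start codon (chr8:122568036-122568064, plus strand).
Mcm5: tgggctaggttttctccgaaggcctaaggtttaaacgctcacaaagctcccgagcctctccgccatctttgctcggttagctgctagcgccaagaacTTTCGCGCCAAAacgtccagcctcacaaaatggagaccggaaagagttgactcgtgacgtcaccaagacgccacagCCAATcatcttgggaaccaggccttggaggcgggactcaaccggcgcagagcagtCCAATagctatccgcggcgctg
Mcm10: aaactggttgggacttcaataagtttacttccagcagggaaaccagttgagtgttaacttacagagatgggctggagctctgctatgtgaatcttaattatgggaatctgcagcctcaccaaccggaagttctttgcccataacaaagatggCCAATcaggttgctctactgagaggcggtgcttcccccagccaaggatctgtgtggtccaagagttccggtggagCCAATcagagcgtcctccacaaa
Pole4: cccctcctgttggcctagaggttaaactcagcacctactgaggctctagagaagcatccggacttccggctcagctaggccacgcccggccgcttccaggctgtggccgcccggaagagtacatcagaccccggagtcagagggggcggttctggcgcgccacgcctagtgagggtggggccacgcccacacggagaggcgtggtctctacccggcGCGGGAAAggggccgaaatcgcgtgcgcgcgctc
Cdt1: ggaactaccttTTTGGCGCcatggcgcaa

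Whether storage in space left a mark on the replication genes is asked by the comparison of Space with Ground pups, and no such gene was called. None of the 44 genes had an adjusted p under 0.05 in edgeR's quasi-likelihood test, against 0% of the 12847 genes tested (0 genes). DESeq2 and limma voom with quality weights also called 0 of the 44. At an unadjusted p under 0.05 there were 3 of 44, namely Gins1, Pold2 and Prim1, against 1186 genes or 9.23% of all tested. The median log2 change of the 44 was 0.01, with 22 above and 22 below 0, and the median of all genes was -0.02. The range ran from -0.42 for Cdt1 to 0.66 for Mcm10, and neither passed the test over all libraries.

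Mcm10 had the largest of these changes, and its level split by Xist class. Its CPM was 99.1, 107 and 110 in Space replicates 1 to 3 and 33.1, 42.1 and 33.5 in Space replicates 4 to 6. In Ground pups it was 54.1, 59.5 and 72.6 in replicates 1 to 3 and 29.1, 28.8 and 24.8 in replicates 4 to 6. The 3 Xist-low Space libraries lay above all 3 Xist-low Ground libraries, and the same held among the Xist-high libraries, whereas over all 6 libraries the groups overlapped. Mcm10 was picked for its large change, and the share of all genes that split in this way was not counted. Over all libraries the log2 change was 0.66 ± 0.34 (SE), with an adjusted p of 0.567 in edgeR. With the Xist class as covariate it was 0.61 ± 0.22 (SE), with an unadjusted p of 0.0119 and an adjusted p of 0.239 in edgeR, and with the replicate number as a block 0.60 ± 0.24, with 0.0239 and 0.361. Fitted on the Xist-low libraries alone it was 0.77 ± 0.11 (SE) with an adjusted p of 0.0322 in edgeR, the only replication gene among the 14 genes called there. In the model with group, class and their interaction, where all 18 libraries share the estimate of spread, the same contrast gave an adjusted p of 0.188. Rnaseh2c had a smaller unadjusted p than Mcm10 in both the class and the block fit in edgeR, 0.00864 and 0.0125. Its log2 change was 0.27 ± 0.09 (SE) and 0.28 ± 0.10, with adjusted p of 0.220 and 0.320. Gins1 was below Mcm10 with the block as well, at an unadjusted p of 0.0145.

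Against BDF1 mice, Space pups had 1 replication gene called. This was Pole4, which rose, and 1 of 44 is 2.27% against 3.8% of all genes tested. Pole4 ranged from 20.3 to 24.8 CPM with a median of 21.7 in Space pups and from 12.5 to 18.6 with a median of 15.9 in BDF1 mice. The groups did not overlap, which was true of 1 of the 44 genes and of 3.92% of all genes. The log2 change was 0.47 ± 0.11 (SE, n = 6 and 6), with an adjusted p of 0.0266 in edgeR. The call was lost when Space replicate 2 or 3 or BDF1 replicate 2, 4 or 5 was left out, with adjusted p up to 0.0615. It was also lost with total-count scaling (0.364), without the filter on low counts (0.0563), and on the Xist-low (0.0540) or the Xist-high libraries alone (0.119).

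Ground pups had 2 replication genes lower than BDF1 mice, Prim1 and Pold2, which is 4.55% of the 44 against 3.81% of all genes. Prim1 is the catalytic subunit of the primase. It ranged from 1.47 to 2.17 CPM with a median of 1.76 in Ground pups and from 2.10 to 4.94 with a median of 4.05 in BDF1 mice, so that only BDF1 replicate 5 reached the range of the Ground pups. The log2 change of Prim1 was -1.09 ± 0.19 (SE), with an adjusted p of 0.00741 in edgeR, and the call held without any single library. On the Xist-high libraries alone Prim1 changed by -0.70 ± 0.29 (SE), with an adjusted p of 0.164. Pold2, the second subunit of polymerase delta, ranged from 5.59 to 9.43 CPM with a median of 7.70 in Ground pups and from 8.67 to 13.0 with a median of 11.5 in BDF1 mice. It fell by 0.57 ± 0.14 (SE) on the log2 scale, with an adjusted p of 0.0369 in edgeR, and it was no longer called in 7 of 18 fits with a library left out, namely without Ground replicate 4, 5 or 6 or BDF1 replicate 2, 4, 5 or 6. The Pold2 call was also lost with limma voom (adjusted p of 0.0898), without the filter on low counts (0.0612) and without the 3 libraries high in Serpina6 (0.113). On the Xist-low libraries alone Pold2 changed by -0.13 ± 0.12 (SE), with an adjusted p of 0.573.

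Space and Ground pups were compared with the same 6 BDF1 libraries, so the values of a gene in both comparisons are not independent. Prim1 changed by -0.66 ± 0.19 (SE) in Space pups, with an adjusted p of 0.0584 in edgeR. Its CPM there ranged from 2.04 to 2.77 with a median of 2.38. Pole4 changed by 0.38 ± 0.11 (SE) in Ground pups, with an adjusted p of 0.0673. Pold2 in Space pups ranged from 8.22 to 11.2 CPM with a median of 9.78 and changed by -0.20 ± 0.14 (SE), with an adjusted p of 0.447. The joint test for any difference among the 3 groups called Prim1 and Pole4, 4.55% of the 44 against 3.98% of all genes. The medians over the 44 genes were -0.03 in Space pups and -0.06 in Ground pups, against 0.00 and 0.02 over all genes.

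**Figure D2:**
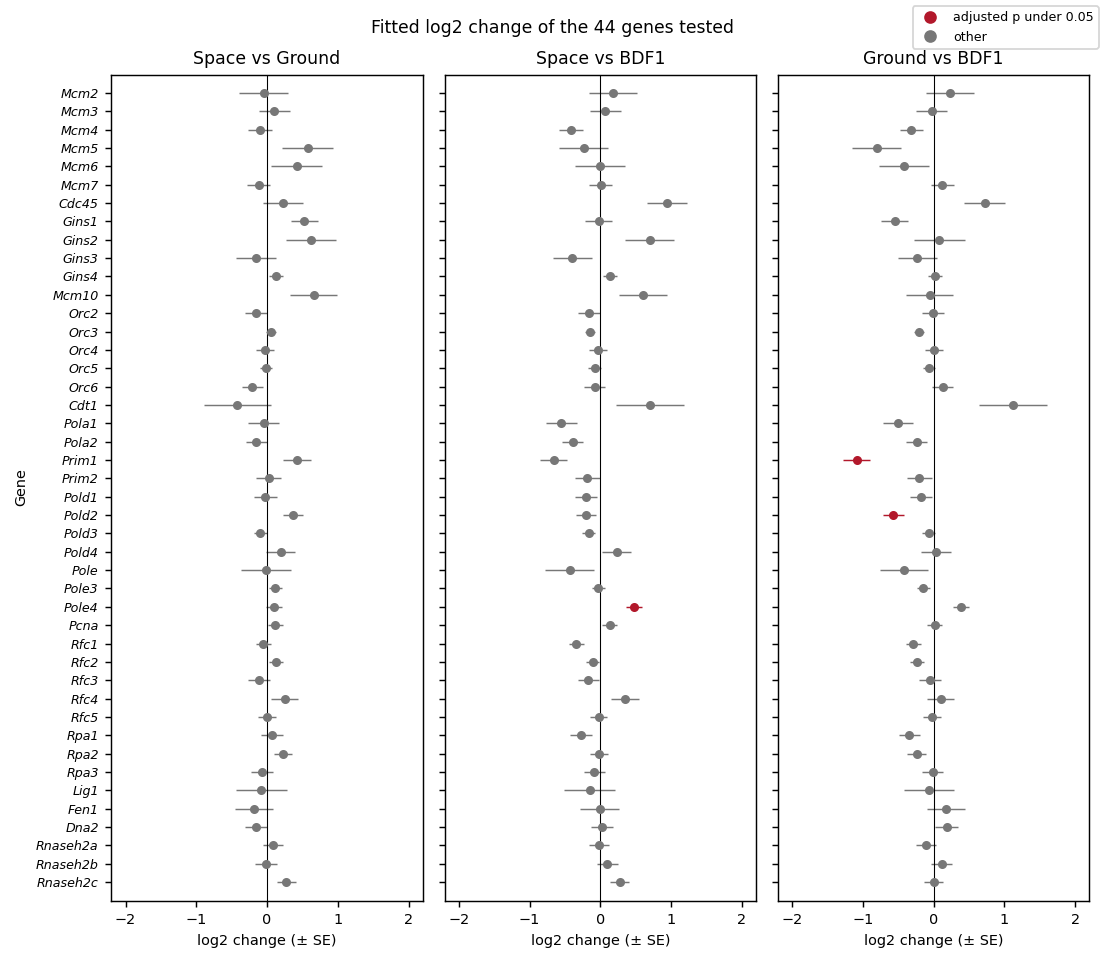
Fitted log2 change with its standard error for each of the 44 genes tested, in the 3 pairwise comparisons of groups of 6 libraries. No gene passed an adjusted p of 0.05 between Space and Ground, Pole4 at 0.47 did between Space and BDF1, and Prim1 at -1.09 and Pold2 at -0.57 did between Ground and BDF1.

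By sub-complex, the polymerase alpha-primase genes had the lowest medians. All 4 of them, Pola1, Pola2, Prim1 and Prim2, had log2 changes below 0 in both pup groups, with a median of -0.47 in Space pups and -0.37 in Ground pups. Of these 4 genes, 0 passed the test in Space pups, with 3 at an unadjusted p under 0.05 against 20.8% of all genes, and Prim1 passed in Ground pups. Their summed level was 13.0 ± 0.608 CPM (SD, n = 6) in Space pups, 13.2 ± 2.37 in Ground pups and 17.7 ± 1.09 in BDF1 mice. The lowest BDF1 library, at 16.6 CPM, lay above every pup library, of which the highest was at 14.1 CPM in Space and at 16.3 CPM in Ground pups. Singly, each of the 4 genes overlapped between Space pups and BDF1 mice. Pola2, the regulatory subunit of polymerase alpha, ranged from 4.75 to 7.77 CPM in Space pups with a median of 6.12, from 4.58 to 9.08 with a median of 6.90 in Ground pups and from 6.84 to 8.60 with a median of 8.30 in BDF1 mice.

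The MCM helicase did not move as a unit. The summed CPM of Mcm2 to Mcm7 was 23.9 ± 6.66 (SD, n = 6) in Space pups, 23.9 ± 4.07 in Ground pups and 24.5 ± 3.80 in BDF1 mice, and none of the 6 genes was called in any of the 3 comparisons. Mcm7 ranged from 9.89 to 16.3 CPM in Space pups with a median of 11.5, from 8.77 to 14.7 with a median of 13.6 in Ground pups and from 8.23 to 14.7 with a median of 12.4 in BDF1 mice. Mcm4 ranged from 1.80 to 3.83 CPM in Space pups with a median of 2.42, from 2.42 to 3.38 with a median of 2.71 in Ground pups and from 2.66 to 4.14 with a median of 3.58 in BDF1 mice. The log2 change of Mcm4 was -0.42 ± 0.17 (SE) in Space pups, with an adjusted p of 0.161 in edgeR, and all 3 groups overlapped.

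Among the helicase partners, Cdc45, which binds the MCM ring to form the CMG helicase, had the largest change against BDF1 mice with group alone. Its CPM ranged from 0.660 to 1.88 in Space pups with a median of 1.27, from 0.621 to 1.47 with a median of 1.07 in Ground pups and from 0.418 to 0.802 with a median of 0.664 in BDF1 mice. The log2 change was 0.94 ± 0.29 (SE) in Space pups, with an adjusted p of 0.0728 in edgeR, and 0.72 ± 0.29 in Ground pups, with an adjusted p of 0.164. The groups overlapped in both comparisons.

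In the origin recognition complex, no gene was called in these comparisons. Orc3 ranged from 15.8 to 17.4 CPM in Space pups with a median of 17.0, from 15.3 to 16.9 with a median of 16.5 in Ground pups and from 16.1 to 21.1 with a median of 19.0 in BDF1 mice. The log2 change of Orc3 was -0.15 ± 0.07 (SE) in Space pups and -0.21 ± 0.07 in Ground pups, with adjusted p of 0.226 and 0.105 in edgeR.

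The clamp Pcna, often used as a mark of proliferating tissue, differed little, with 18.2 ± 2.33 CPM (SD, n = 6) in Space pups, 16.7 ± 2.42 in Ground pups and 16.6 ± 2.19 in BDF1 mice. Rfc1, the large subunit of the clamp loader, ranged from 13.8 to 18.8 CPM with a median of 16.8 in Space pups and from 14.4 to 20.9 with a median of 16.8 in Ground pups. In BDF1 mice it ranged from 17.5 to 24.7 with a median of 20.5. The log2 change was -0.34 ± 0.11 (SE) in Space pups and -0.29 ± 0.11 in Ground pups, with adjusted p of 0.0775 and 0.129 in edgeR. Rfc2 ranged from 14.0 to 16.6 CPM with a median of 15.7 in Space pups, from 12.2 to 16.9 with a median of 13.7 in Ground pups and from 15.1 to 20.2 with a median of 16.0 in BDF1 mice, and it shares 952 bases of exon with Lat2 on the opposite strand.

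The genes for single-strand binding, fragment processing and ribonucleotide removal were not called either. Rpa1, the large subunit of the single-strand binding protein RPA, ranged from 15.2 to 27.6 CPM with a median of 20.2 in Space pups, from 14.5 to 22.9 with a median of 19.5 in Ground pups and from 17.6 to 29.6 with a median of 24.3 in BDF1 mice. Dna2, a nuclease that trims long flaps of Okazaki fragments, ranged from 8.57 to 15.4 CPM with a median of 12.1 in Space pups, from 10.1 to 19.0 with a median of 12.9 in Ground pups and from 8.37 to 14.0 with a median of 12.2 in BDF1 mice. Rnaseh2c ranged from 21.8 to 36.8 CPM with a median of 30.0 in Space pups, from 18.6 to 29.8 with a median of 24.4 in Ground pups and from 18.1 to 27.9 with a median of 25.4 in BDF1 mice. All 3 genes overlapped between groups.

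Libraries of the same number also shared the Xist class, and fits that allow for either moved the counts. With the replicate number as a block, Space pups had 2 genes called against BDF1, Pole4 and Rfc1, which is 4.55% of the 44 against 6.02% of all genes. Rfc1 then fell by 0.34 ± 0.08 (SE) on the log2 scale, with an adjusted p of 0.0294 in edgeR. Ground pups had 3 genes called with the block, adding Pole4 at 0.38 ± 0.10 (SE) with an adjusted p of 0.0361, against 6.56% of all genes. With the Xist class as covariate the count was 5 in each comparison, or 11.4% of the 44. In Space pups Cdc45 and Pole4 rose and Pola2, Prim1 and Rfc1 fell, against 10.4% of all genes. In Ground pups Pole4 rose and Prim1, Pold2, Rfc1 and Rfc2 fell, against 11.2% of all genes. Between Space and Ground pups, neither fit called any of the 44 genes, nor any of all genes tested, while at an unadjusted p under 0.05 there were 4 of the 44 with the block, against 11.5% of all genes, and 5 with the class, against 13.8%.

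The change against BDF1 mice differed between the Xist classes for Mcm10, Cdt1 and Pold2. The interaction of group and class was called for these 3 of 44 genes in Space pups (6.82%, against 3.19% of all 13356 genes tested in that model) and for the same 3 in Ground pups (6.82%, against 2.74%). For the difference between Space and Ground pups, 0 of 44 interactions were called, with 0 over all genes and 7.77% of all genes at an unadjusted p under 0.05. DESeq2 and limma voom with quality weights also called 0 of the 44 there.

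Mcm10 was lower in Xist-high than in Xist-low pups of both groups. In BDF1 mice it was 47.3, 48.6 and 45.0 CPM in replicates 1 to 3 and 33.4, 47.8 and 58.2 in replicates 4 to 6, so that the classes overlapped there, in contrast to the pups. The log2 change from Xist-low to Xist-high libraries was -1.54 ± 0.17 (SE) in Space pups, with an adjusted p of 8.0e-06 in edgeR, and -1.17 ± 0.17 in Ground pups, with an adjusted p of 0.000133. Against BDF1 mice, Mcm10 rose by 1.17 ± 0.17 (SE) in Xist-low Space pups, with an adjusted p of 0.000808, and fell by 0.76 ± 0.17 in Xist-high Ground pups, with an adjusted p of 0.00691. The interaction was -1.53 ± 0.23 (SE) in Space pups, with an adjusted p of 0.00202, and -1.15 ± 0.23 in Ground pups, with an adjusted p of 0.0158. The interaction was called in all 18 fits that left out a library, in both comparisons. Without the 3 libraries high in Serpina6 its adjusted p was 0.0743 in Ground pups, where 1 Xist-high library then remained.

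Cdt1, the loading factor that is degraded once replication has begun, took the opposite course. It was 6.99, 4.98 and 3.68 CPM in the Xist-high Space libraries and 4.95, 9.84 and 6.83 in the Xist-high Ground libraries. In Xist-low pups it was 1.59, 1.50 and 1.28 CPM in Space and 1.42, 2.05 and 1.74 in Ground, and all 6 BDF1 libraries lay between 1.83 and 2.41 CPM. The 6 Xist-high pup libraries were thus above the other 12 without overlap, as they were in the share of Alb. The share of all genes that separated in this way was not counted. The 3 highest values, 6.99, 9.84 and 6.83, were those of the 3 libraries high in Serpina6, whose TMM factors were 0.754, 0.762 and 0.705 against 0.901 to 1.17 elsewhere. Against Xist-high BDF1 libraries, Cdt1 rose by 1.33 ± 0.27 (SE) on the log2 scale in Space pups, with an adjusted p of 0.00553 in edgeR, and by 1.80 ± 0.27 in Ground pups, with an adjusted p of 0.000573. The interaction was 1.79 ± 0.39 (SE) in Space pups, with an adjusted p of 0.0197, and 2.03 ± 0.39 in Ground pups, with an adjusted p of 0.0124. The Space call was lost without Space replicate 3, BDF1 replicate 2 or BDF1 replicate 5, with adjusted p up to 0.0574. Without the 3 libraries high in Serpina6 the interaction of Cdt1 was 1.55 ± 0.32 (SE) in Space pups, with an adjusted p of 0.0109 in edgeR, and 1.48 ± 0.35 in Ground pups, with an adjusted p of 0.0423. Over both classes together, Cdt1 was not called in either comparison, with adjusted p of 0.444 and 0.193.

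Pold2 was higher in Xist-high than in Xist-low BDF1 mice, and lower in Xist-high than in Xist-low Ground pups. Its CPM was 9.92, 10.6 and 8.67 in Xist-low and 12.5, 13.0 and 12.9 in Xist-high BDF1 libraries. In Ground pups it was 9.15, 8.19 and 9.43 in the Xist-low and 5.84, 7.22 and 5.59 in the Xist-high libraries, and in Space pups 10.7, 10.1 and 11.2 and then 8.95, 9.48 and 8.22. The classes did not overlap within any of the 3 groups, and the share of all genes for which this held was not counted. The interaction was -0.91 ± 0.17 (SE) in Ground pups, with an adjusted p of 0.0109 in edgeR, and -0.66 ± 0.17 in Space pups, with an adjusted p of 0.0430. The Space interaction was lost in 13 of the 18 fits that left out a library and rose to an adjusted p of 0.111 without BDF1 replicate 3 and to 0.0796 without the filter on low counts, whereas the Ground interaction held in all 18.

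**Figure D3:**
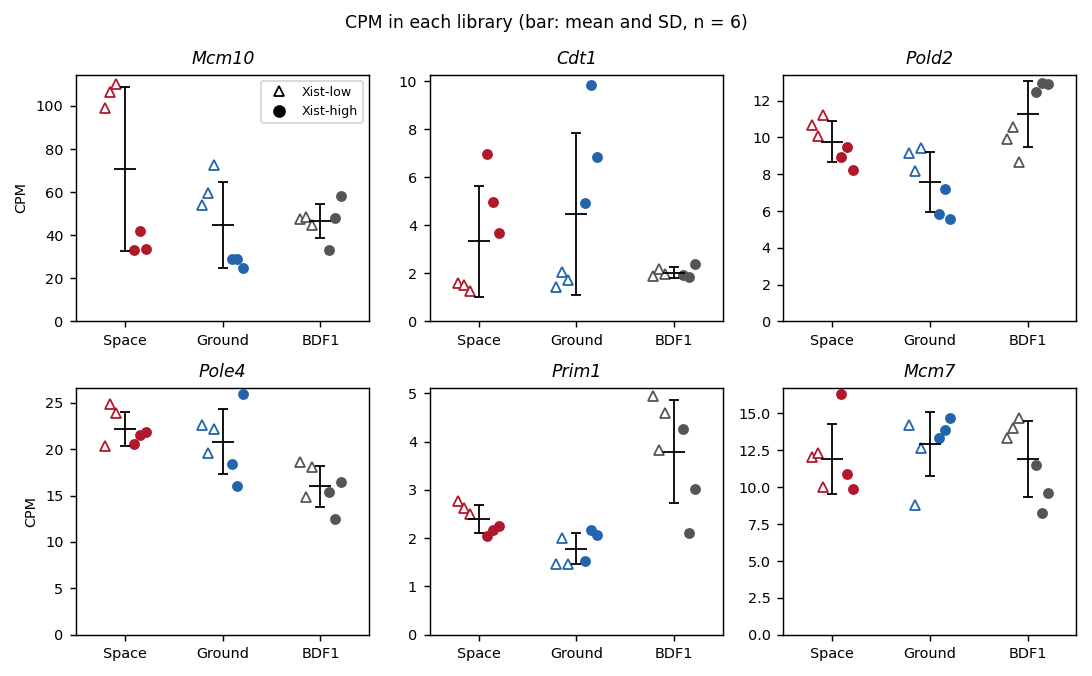
CPM of 6 replication genes in each library of the 3 groups, with open triangles for Xist-low and filled circles for Xist-high libraries, and the mean and SD of each group of 6 as a bar. Cdt1 lies between 3.68 and 9.84 in the 6 Xist-high pup libraries and between 1.28 and 2.41 in the other 12, and Mcm10 lies between 99.1 and 110 in the 3 Xist-low Space libraries.

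Further genes were called within a class. Among Xist-high libraries, Space pups had 5 of 44 called against BDF1, or 11.4% against 11.9% of all genes. These were Cdt1 and Pole4, which rose, and Pold2, Pola1 and Rpa1, which fell by 0.52, 0.92 and 0.67 on the log2 scale. These calls come from the model of all 18 libraries, and fitted on the Xist-high libraries alone 2 of the 44 were called, Cdt1 and Rpa1, against 4.39% of all genes. Ground pups had 3 of 44 called there, or 6.82% against 15.2% of all genes, with Cdt1 higher and Mcm10 and Pold2 lower, and the Xist-high libraries alone gave the same 3 genes, against 6.89%. Among Xist-low libraries, Mcm10 was the gene called in Space pups (2.27% against 4.64%) and Prim1, at -1.44 ± 0.24 (SE), the gene called in Ground pups (2.27% against 1.92%). On the Xist-low libraries alone Prim1 was also called in Space pups (8.56% of all genes) and Mcm5 in Ground pups (4.4%). Between the classes themselves, 4 of 44 genes were called in Space pups (9.09%, against 21.9% of all genes), 6 in Ground pups (13.6%, against 18.3%) and 2 in BDF1 mice (4.55%, against 14.6%). From Xist-low to Xist-high libraries, Orc4 fell by 0.33 in Space pups and by 0.47 in Ground pups on the log2 scale, and Pold4 rose by 0.69 in Space pups and by 0.60 in BDF1 mice. Pola1, at 0.80, and Lig1, the ligase that joins Okazaki fragments, at 1.16, were higher in Xist-high than in Xist-low Ground pups. Pold4 CPM ranged from 10.6 to 23.5 in Space pups with a median of 16.2, from 10.4 to 20.8 with a median of 14.0 in Ground pups and from 9.14 to 18.5 with a median of 13.8 in BDF1 mice.

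The Xist-high pups that were high in Cdt1 were also high in genes of mitosis. The summed CPM of 20 mitosis genes was between 16.7 and 114 in Xist-high Space libraries and between 36.6 and 80.4 in Xist-high Ground libraries. It was between 4.22 and 10.1 in the other 12. The proliferation marker Mki67 was at 29.5, 3.06 and 5.81 CPM in Xist-high Space and at 16.6, 11.7 and 9.18 CPM in Xist-high Ground libraries, and did not exceed 1.42 CPM elsewhere. Several mitosis genes passed the filter only through the Xist-high pups, so no count of those called is given. In the comparison of Xist-high pups with Xist-high BDF1 mice, the 44 replication genes changed by -0.92 for Pola1 to 1.33 for Cdt1 in Space pups and by -1.04 for Pold2 to 1.80 for Cdt1 in Ground pups, with medians of -0.06 and -0.09. The 6 genes of the MCM helicase, with 0 called, had medians of 0.05 and 0.05. The medians of all genes were 0.01 in both.

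**Figure D4:**
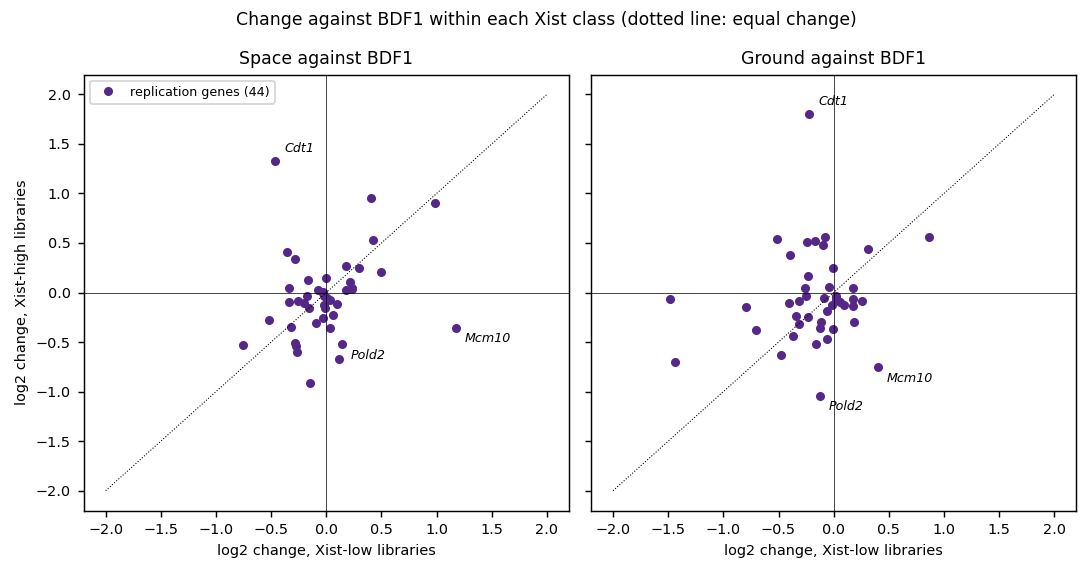
Log2 change against BDF1 in Xist-low libraries (horizontal axis) and in Xist-high libraries (vertical axis), for Space pups on the left and Ground pups on the right, with 1 point for each of 44 replication genes and 3 libraries per group and class. Cdt1 lies highest on the vertical axis in both panels, at 1.33 and 1.80, and Mcm10 and Pold2 lie below the dotted line.

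Whether other cells moved with these genes was read from marker lists. The 10 hepatocyte markers summed to between 229508 and 390412 CPM in Xist-high pups and to between 70714 and 107730 in the other 12 libraries, and most of each sum was Alb. Cyp2e1, another of the list, overlapped, at between 3224 and 4225 CPM in Xist-high pups and at between 2844 and 6615 in the other libraries. Over all libraries, log2 changes of the 10 against BDF1 mice ran from -0.37 for Cyp2e1 to 1.35 for Alb in Space pups. In Ground pups they ran from -0.32 for Cyp2e1 to 1.55 for Alb. Apoa1 rose by 1.01 and 0.94, with adjusted p of 0.0335 and 0.0460 in edgeR. The 4 B cell markers summed to between 2.65 and 5.12 CPM in Xist-high pups, between 1.97 and 2.43 in Xist-high BDF1 mice and between 0.366 and 1.52 in Xist-low libraries. The summed CPM of the 7 endothelial markers was lower in Space than in Ground pups without overlap in both classes. The split of Mcm10 had the opposite direction. Singly, the log2 changes of these markers ran from -0.77 for Stab2 to 0.12 for Lyve1 over all libraries. Among Xist-low libraries the 7 summed to between 85.2 and 90.1 CPM in Space and between 100.2 and 142 in Ground. Among Xist-high libraries they summed to between 87.7 and 107 and between 116 and 154, and in BDF1 mice to between 77.4 and 148. The 7 stellate cell markers summed to between 181 and 214 CPM in Xist-low BDF1 mice, against between 238 and 357 in Xist-low pups, and to between 263 and 361 in Xist-high libraries. The 6 T cell markers summed to between 0.374 and 2.86 CPM over all libraries. The 5 neutrophil markers summed to between 2.53 and 3.14 CPM in Xist-high Space pups, between 1.44 and 2.28 in Xist-high Ground pups and between 0.347 and 0.752 in Xist-high BDF1 mice, with no overlap, and to between 0.141 and 3.33 in Xist-low libraries, and Ly6g among them had no count in 16 of the 18. The 5 cholangiocyte markers summed to between 12.7 and 19.2 CPM in Xist-high Ground pups and to at least 21.2 in every other library. The 7 erythroid precursor markers reported here summed to between 30.0 and 34.2 CPM in Xist-low and between 15.7 and 17.7 in Xist-high BDF1 mice, and to between 15.7 and 31.8 in pups. Rhag had no count in 17 of the 18 libraries and Hemgn in 14, whereas Klf1, Epor and Tspan33 had counts in all 18. The 7 Kupffer cell markers summed to between 128 and 212 CPM in Xist-high pups and between 71.8 and 193 in the other libraries. The 10 haploid germ cell genes reached 54.9 CPM in Space replicate 6 and 5.59 CPM in BDF1 replicate 3. The part of these cells in the values of Cdt1, Mcm10 or Pold2 was not tested.

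The split of the replication genes by E2F letters was read in the same contrasts. Over all libraries, the 16 tested genes with E2F letters had a median log2 change of -0.16 in Space pups and -0.13 in Ground pups, and the 20 without had medians of -0.02 and -0.01. Among Xist-high libraries the medians were -0.13 and -0.10 with E2F letters, and -0.03 and -0.07 without. The values with E2F letters ran from -0.92 for Pola1 to 1.33 for Cdt1 in Xist-high Space pups, so genes with such letters lay at both ends there. In Xist-high Ground pups they ran from -0.52 to 1.80, and those without E2F letters from -1.04 to 0.56.

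Other genes of the pathway were counted from 3 lists, with 64 genes tested. Of these, 2 were called in Space pups against BDF1 (3.8% of all genes) and 5 in Ground pups (3.81%). Of the 21 tested regulators of replication, 0 were called in edgeR in Space pups against BDF1, with 4 at an unadjusted p under 0.05 (20.8% of all genes), and 1 rose in Ground pups. This was Top2a, the topoisomerase of dividing cells, at 2.82 ± 0.77 (SE) with an adjusted p of 0.0485. Values by Xist class are not given for Top2a, so its calls may rest on the Xist-high pups, as for the mitosis genes. Of the 18 tested genes for nucleotide supply and chromatin assembly, Rrm2 rose in both comparisons and no other was called with group alone. Rrm2, the small subunit of ribonucleotide reductase, was between 3.32 and 11.5 CPM in the 12 pups and between 1.37 and 2.12 CPM in BDF1 mice, with no overlap. The share of all genes with such a gap between all pups and BDF1 mice was not counted. For Rrm2 the log2 change was 1.86 ± 0.29 (SE) in Space pups, with an adjusted p of 0.00252 in edgeR, and 1.76 ± 0.29 in Ground pups, with an adjusted p of 0.00514. Of the 25 tested E2F and cyclin genes, Rbl2, a pocket protein of resting cells, fell by 0.45 in Space pups with an adjusted p of 0.0177, and by 0.37 in Ground pups with an adjusted p of 0.0460. Myc and E2f7 rose in Ground pups, by 1.26 and 2.22, with adjusted p of 0.0311 and 0.0274. The limit given for Top2a holds for E2f7 as well. With the Xist class as covariate, 5 of the 64 were called in Space pups (10.4% of all genes), where Top2a, Myc and Dck were added, and 8 in Ground pups (11.2%), where Dck, Ccne2 and Top1 were added. With the replicate block, Top2a was called in Space pups too, with an adjusted p of 0.0390 in edgeR, and Top1 in Ground pups, with 0.0453. Between Space and Ground pups, 0 genes of the 3 lists were called in edgeR, with 3 at an unadjusted p under 0.05 against 9.23% of all genes.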

How the data were processed

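Per the labels, RNA of 18 liver samples was made into stranded mRNA libraries. The study's methods name another stranded kit and single-read sequencing, so the kit and read mode are not settled. The submitters' processing notes name bcl2fastq 2.20, cutadapt 4.6, HISAT2 2.2.1, HTSeq 2.0.2 and mm10. The counting mode and strand setting are not given in the sources used here, so reads of overlapping genes cannot be told apart. The deposited values are raw counts per gene for 32285 genes, 10671 of which were at 0 throughout. Every row carried a gene name, and all columns were used.

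Group and number of each library follow the labels, which name no litter or batch, so p-values measure the spread between these libraries. They do not allow for pup libraries that shared a father. The 12847 genes that passed filterByExpr were fitted with TMM scaling, over all 18 libraries and with group alone, by edgeR 4.0.16 (R 4.3.3), with the quasi-likelihood test and Benjamini-Hochberg adjustment over all genes tested. Genes with an adjusted p under 0.05 were called. A standard error is the size of the log2 change divided by the root of its F statistic. A further model held group, Xist class and their interaction (13356 genes). A library was Xist-high where Xist exceeded the summed CPM of Ddx3y, Eif2s3y, Kdm5d and Uty. The class is a property of the library and not a group of the study. CPM per kb used the union of exons in GENCODE M21. The fits were tested on simulated data, with no changed gene called with the wrong sign. Alternatives were limma 3.58.1 voom with quality weights, DESeq2 1.42.0, the size factors of DESeq2, total counts for scaling, other filters, the replicate block, the Xist class and leaving out each library. Leaving out the 3 libraries high in Serpina6 was chosen after seeing the data.

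The replication genes and all gene lists were chosen with earlier results of these data known. Values by library were given for genes called in a comparison of groups, with the class as covariate or in an interaction, and for the genes of highest CPM and smallest joint p in each sub-complex. In the other lists, genes were named from the 3 of smallest joint p. Pcna, Top1, Orc4, Pola1, Lig1, Mcm5, Gins1 and the genes named for level fall outside this rule and were picked with their values known.

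Deviations of same-numbered libraries from their group means correlated at 0.231 to 0.654 over all 18 pairs, all above 0.1, so a replicate block was fitted. The median was 0.487, against 0.529 for libraries of one class but unlike numbers. Once deviations were taken within the class, the median for like numbers was -0.05. No libraries were counted as duplicates, the closest pair having a chi-square per gene of 10.1. One erythroid precursor marker of the list is not reported here.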

Additional observations from a re-analysis of the deposited data

Results flagged for a closer look

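Mcm7 in Ground replicate 2 lay apart from the other Ground libraries, at 8.77 CPM against 12.7 in the nearest of them, a gap of 0.662 of the range of the group. Of the 48 sets of 6 values examined for 16 genes, this was the only such case, and chance alone gives about 1 in 20, or 2.4 of 48.

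The change of Mcm10 against BDF1 mice differed between Xist-high and Xist-low libraries by -1.53 on the log2 scale in Space pups and by -1.15 in Ground pups. For Cdt1 the difference was 1.79 in Space pups and 2.03 in Ground pups. For Pold2 it was -0.66 in Space pups and -0.91 in Ground pups. Each passed the test of the interaction in edgeR, and the same BDF1 libraries entered both comparisons.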

How the results depend on the processing

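No change or interaction of a replication gene called with group alone, with the class or in an interaction, nor that of Mcm10 between Space and Ground pups, turned sign under the alternatives run. Medians by sub-complex and by E2F letters were not refitted, and genes of other lists were fitted with the block and the class alone. Between Space and Ground pups, 0 of the 44 replication genes were called under every alternative except on the Xist-low libraries alone, where it was 1 (Mcm10), against 0.11% of all genes. For Space against BDF1, 1 was called, and the count was 4 with DESeq2 (8.02% of all genes), 4 with limma voom and quality weights (10.2%), 3 with total counts (5.57%), 0 without the filter on low counts (1.3%), 5 with the Xist class as covariate (10.4%), 2 on the Xist-low (8.56%) and 2 on the Xist-high libraries alone (4.39%), and 0 to 2 when a library was left out. For Ground against BDF1, 2 were called, and the count was 6 with total counts (7.34% of all genes), 1 without the filter (1.01%), 5 with the class (11.2%), 1 without the libraries high in Serpina6 (2.33%), and 1 to 2 when a library was left out. The joint test called 2, and 4 with total counts (6.55%), 1 without the filter (1.24%), 4 with the class (12.8%) and 1 to 2 when a library was left out. The interaction in Space pups was called for 3, for 5 with limma voom (11.3%), for 2 without the filter (2.28%), and for 1 to 3 when a library was left out, and that in Ground pups for 3 and for 6 with total counts (11.2%) and 2 without the libraries high in Serpina6 (2.07%). Total counts moved the median log2 change of all genes from 0.00 to -0.25 in Space and from 0.02 to -0.24 in Ground pups, and all members called there were lower (3 and 6, against 0 of 1 and 2 of 2). The cause of the other changes was not tested.

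With the replicate block, the pairing by number gave 0 genes called between Space and Ground pups, 2 and 3 in Space and Ground pups against BDF1 mice. In these pairwise comparisons it changed no call of a replication gene other than those of Rfc1 and Pole4, and in the 3 other pathway lists those of Top2a and Top1. The joint test called 3 with the block (6.55% of all genes), Rfc1 being added. In the 3 other lists the joint call of Myc was lost with the block, at an adjusted p of 0.0586 in edgeR. That of Top2a was gained, at 0.0323. Without the 3 Serpina6-high libraries, a single Xist-high Ground library remained, which is assumed to vary like the other groups. Orc1, Cdc6 and Pole2 are limited by depth, as are changes in genes near 1 CPM such as Cdc45.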
